A study of Macaca mulatta with 12 samples.

Results

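Kidney and small intestine were compared through 4 of the 12 small RNA sequencing profiles of the rhesus macaque, *Macaca mulatta*, 2 profiles of each organ. The choice of profiles rests on the labels alone and used no measured value. The series covers 8 tissues, of which kidney, small intestine, large intestine and muscle have 2 profiles each and liver, lung, occipital lobe and spinal cord have 1. All 12 profiles come from wild type, untreated animals of 36 months, and the study's methods name 2 animals. The labels do not tie a profile number to an animal, so the p-values given here measure the spread between profiles, which may be technical in part. Each profile is 1 TruSeq small RNA library of TRIzol total RNA from a piece of whole organ, read on an Illumina sequencer. In bulk RNA of this kind, fewer cells of a type and less RNA per cell cannot be told apart.

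Levels are given in RPTM, reads of a mature miRNA per 10000000 valid reads of its profile. The 4 profiles held between 23710183 and 25579064 valid reads, so that a single read was worth between 0.391 and 0.422 RPTM. Reads assigned to mature miRNAs made up 68.4% and 55.0% of the valid reads in kidney and 64.3% and 63.5% in small intestine. Reads of 21 to 23 nucleotides, the size of a miRNA, made up 80.5% and 78.1% in kidney and 69.9% and 71.5% in small intestine. The part of these differences in the results was not tested.

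A mature miRNA is cut from 1 arm of a hairpin precursor (pre-miRNA), is loaded into an Argonaute protein and pairs with target mRNAs mainly through its seed, bases 2 to 8. The proximal tubule of the kidney and the villus of the small intestine are both lined by a single layer of polarised epithelium with a brush border, which takes up solutes through apical transporters. The intestinal wall adds a thick coat of smooth muscle, secretory and endocrine cells, and a mucosa rich in leukocytes, whereas the kidney adds glomeruli, long tubule segments and a dense bed of capillaries. miR-192, miR-215 and miR-194 are known from epithelia of both organs, and miR-10b is transcribed within a HOX cluster, whose genes set position along the body axis.

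The mature sequences on which the comparison turns are printed 5′ to 3′ with the seed in capitals. The first set holds miRNAs that share a seed and differ elsewhere, so that their reads can be told apart.
mml-miR-192-5p: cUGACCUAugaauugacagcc
mml-miR-215-5p: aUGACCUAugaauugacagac
mml-miR-10b-5p: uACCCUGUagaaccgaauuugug
mml-miR-10a-5p: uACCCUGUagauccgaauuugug
mml-miR-204-5p: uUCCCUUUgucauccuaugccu
mml-miR-211-5p: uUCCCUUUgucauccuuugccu
The second set holds miRNAs with other seeds for which the organs stood far apart.
mml-miR-30a-5p: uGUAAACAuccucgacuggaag
mml-miR-30c-2-3p: uGGGAGAAggcuguuuacucu
mml-miR-194-5p: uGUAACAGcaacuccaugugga
mml-miR-375-3p: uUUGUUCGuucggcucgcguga
mml-miR-802-5p: cAGUAACAaagauucauccuugu
Counted from 1 at the 5′ end, miR-192-5p and miR-215-5p differ by C1A and C20A, miR-10b-5p and miR-10a-5p by A12U, and miR-204-5p and miR-211-5p by A17U. Both members of each pair therefore carry 1 seed. Reads that fitted both members made up at most 0.00792% of the reads of any of these 6 miRNAs.

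Of the 371 mature miRNAs that passed the abundance filter, 33 (8.89%) were higher in kidney and 61 (16.4%) were higher in small intestine, 25.3% in either direction, at an adjusted p under 0.05 (edgeR quasi-likelihood test, two-sided, Benjamini-Hochberg over the 371). The log2 fold change, given throughout as kidney over small intestine so that a positive value is higher in kidney, had a median of -0.17 over all 371. Among the called miRNAs the difference was over 8-fold for 15 that were higher in kidney and for 23 that were higher in small intestine. The profiles of the organs did not overlap for any of the 94 called miRNAs. The same held for 62.8% of all miRNAs tested, with both kidney profiles above in 34.8% and both small intestine profiles above in 28%. Within an organ, the 2 profiles differed by a median of 0.52 on the log2 scale in kidney and 0.45 in small intestine.

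**Figure D1:**
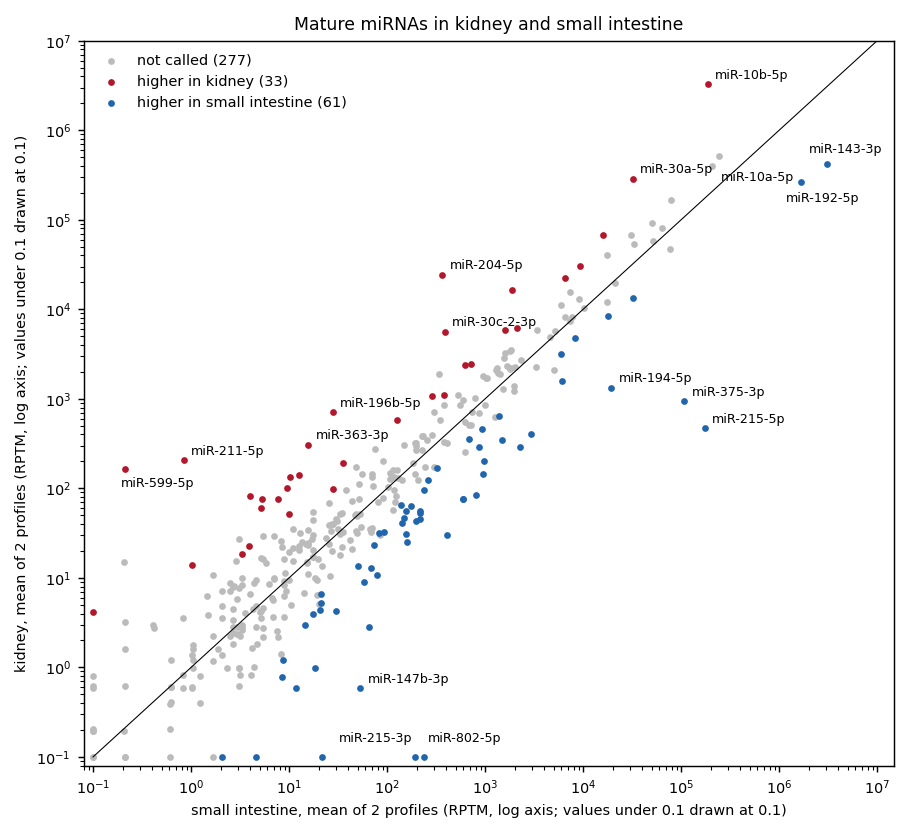
Mean level of each of the 371 tested mature miRNAs in small intestine (horizontal axis) and kidney (vertical axis), in RPTM on log axes, 1 point a miRNA and 2 profiles a mean. Red points were called higher in kidney (33), blue points higher in small intestine (61), and grey points were not called (277). miR-10b-5p stands far above the line of equal levels, and miR-215-5p and miR-375-3p stand far below it.

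The balance of the calls depended on how the profiles were scaled. With scaling to all valid reads in place of TMM, 51 miRNAs were higher in kidney and 48 were higher in small intestine. With scaling to assigned reads without miR-10b-5p, 166 were higher in kidney and 26 were higher in small intestine, and the median log2 fold change of all miRNAs moved by 1.32. All 33 calls for kidney were also made under both of these scalings, and of the 61 calls for small intestine 48 and 26 were. The scaling without miR-10b-5p moved 369 of the 371 log2 fold changes towards kidney, and all valid reads moved their median by 0.23 the same way. Kept calls for kidney and lost calls for small intestine are thus built into these scalings. Each profile also mattered, since the count higher in small intestine was 38 without kidney profile 1, 34 without kidney profile 2 and 33 without small intestine profile 1, and the count higher in kidney was 21 without small intestine profile 2. Without each profile in turn, 17 of the 33 and 26 of the 61 were called every time.

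**Figure D2:**
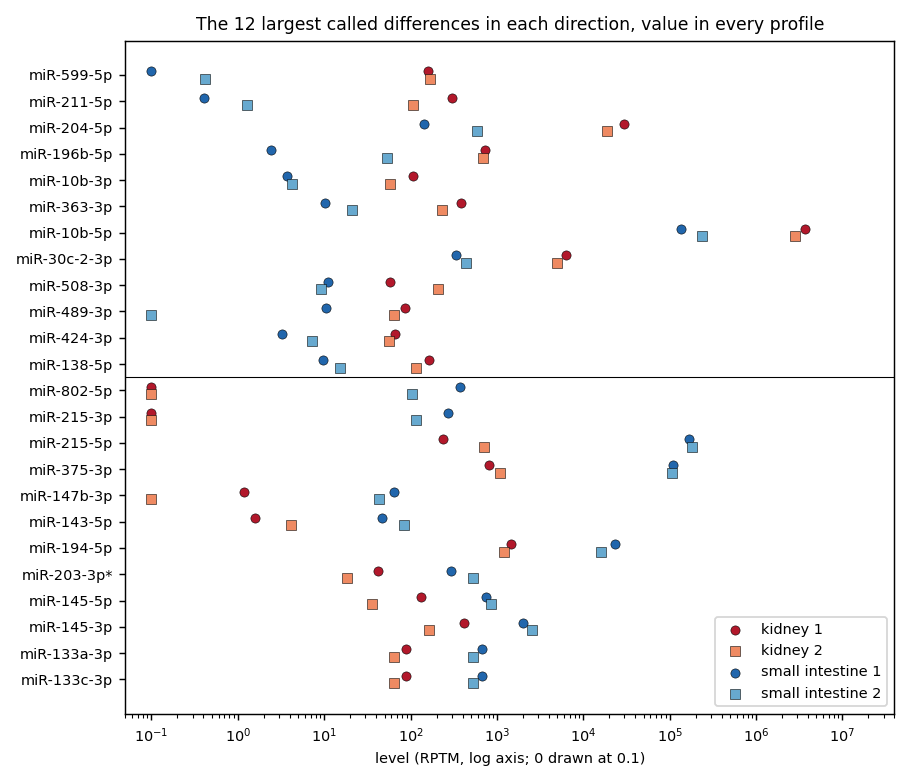
Level in every profile (horizontal axis, RPTM on a log axis, 0 drawn at 0.1) of the 12 miRNAs with the largest called difference in each direction, among those with a mean of at least 50 RPTM in the higher organ. Circles are profile 1 and squares profile 2, and kidney is red or orange and small intestine blue. For all 24, both profiles of one organ lie above both profiles of the other. The asterisk marks the first of 2 mature sequences named miR-203-3p.

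A few miRNAs held most of the assigned reads in both organs, in different shares. miR-10b-5p alone made up 54.2% and 51.3% of the assigned reads in kidney, against 2.13% and 3.72% in small intestine. In small intestine miR-143-3p made up 46.1% and 49.9%, and miR-192-5p 29.1% and 22.8%. The 5 most abundant miRNAs in kidney were miR-10b-5p, let-7f-5p, miR-143-3p, miR-10a-5p and miR-30a-5p, which held 80.9% and 76.8% of the assigned reads. In small intestine miR-192-5p took the place of miR-30a-5p in the 5, which held 83.7% and 84.0%. let-7f-5p and miR-10a-5p, abundant in both organs, were not called, with log2 fold changes of 0.86 and 0.66 (adjusted p = 0.109 and 0.219, edgeR).

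Among the miRNAs of the HOX clusters, 3 of 6 that passed the filter were higher in kidney and none was higher in small intestine. Over all 371 miRNAs, 8.89% were called higher in kidney and 16.4% higher in small intestine. The counts of this and the later groups are to be read beside these shares. Both strands of a hairpin count as separate members, although they come from 1 precursor. miR-10b-5p stood at 3705808 and 2821416 RPTM in kidney and 136781 and 236448 RPTM in small intestine. Both kidney profiles were above all other profiles of the series, the next being muscle with 1744757 RPTM. The log2 fold change was 3.87 ± 0.48 (SE, adjusted p = 7.52e-05, edgeR), which held under every alternative tested. The other strand of the same hairpin, miR-10b-3p, stood at 108 and 58.3 RPTM in kidney and 3.68 and 4.22 RPTM in small intestine (log2 fold change 4.08 ± 0.67 SE, adjusted p = 0.000617, edgeR). In the T2T-MMU8v2.0 annotation of RefSeq, MIR10B lies within HOXD4 and MIR10A within HOXB3.

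miR-10a-5p, which shares the seed of miR-10b-5p, stood at 480356 and 310602 RPTM in kidney and 143916 and 270069 RPTM in small intestine. Both kidney profiles were above both small intestine profiles, but small intestine profile 2 came close to kidney profile 2, and the difference was not called. miR-10b-5p made up 88.5% and 90.1% of the reads of this seed in kidney and 48.7% and 46.7% in small intestine. miR-196b-5p, from another HOX cluster, stood at 728 and 687 RPTM against 2.46 and 53.6 RPTM (log2 fold change 4.45 ± 0.89 SE, adjusted p = 0.00235, edgeR). For miR-196a-5p the small intestine profiles lay far apart, at 21.3 and 654 RPTM, against 2213 and 1622 RPTM in kidney, and the difference was not called (adjusted p = 0.0929, edgeR).

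All 5 miRNAs of the miR-192, miR-215 and miR-194 genes that passed the filter were higher in small intestine, against 16.4% over all miRNAs. Of these, miR-215-3p passed only through the small intestine profiles and therefore had to differ. With miR-215-3p included, the 5 had a median log2 fold change of -4.13 against -0.17 over all miRNAs. miR-192-5p was abundant in both organs, at 253994 and 277153 RPTM in kidney and 1873843 and 1445511 RPTM in small intestine (log2 fold change -2.88 ± 0.44 SE, adjusted p = 0.000351, edgeR). The kidney level was below that of liver (1203647 RPTM) and large intestine (978784 and 443632 RPTM) and above that of lung, muscle, occipital lobe and spinal cord, where the highest profile held 28864 RPTM. miR-215-5p, with the same seed, stood at only 236 and 707 RPTM in kidney and at 166876 and 183652 RPTM in small intestine (log2 fold change -8.66 ± 0.79 SE, adjusted p = 1.4e-05, edgeR). The large intestine profiles held 18791 and 6963 RPTM, between the other two organs.

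Within the seed UGACCUA the 2 miRNAs took other shares in each organ. miR-215-5p made up 0.0927% and 0.254% of their summed reads in kidney and 8.18% and 11.3% in small intestine. The other strand, miR-215-3p, had no read in either kidney profile and 270.5 and 115 RPTM in small intestine, at least 322-fold higher against a floor of 3 reads over both kidney profiles. Intervals and floors cover counting error only.

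miR-194-5p links both genes, because 1 copy of its hairpin lies beside mir-215 within IARS2 and the other beside mir-192 in the T2T-MMU8v2.0 annotation. It stood at 1461 and 1210.1 RPTM in kidney and 23053 and 15874 RPTM in small intestine (log2 fold change -4.13 ± 0.43 SE, adjusted p = 3.44e-05, edgeR). The copies give the same 22 nucleotides, but reads that run on past the 3′ end differ, which the forms below show with the added bases in capitals.
mml-mir-194-1, 1 base longer: uguaacagcaacuccauguggaC
mml-mir-194-1, 2 bases longer: uguaacagcaacuccauguggaCU
mml-mir-194-2, 1 base longer: uguaacagcaacuccauguggaA
Reads that matched mir-194-1 alone numbered 35 and 58 in kidney and 30463 and 21971 in small intestine, that is 13.7 and 24.0 RPTM against 12465 and 9266 RPTM. Reads that matched mir-194-2 alone stood at 120.0 and 98.8 RPTM against 936 and 415 RPTM.

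Of the reads that matched 1 copy only, mir-194-1 gave 10.2% (95% Wilson interval 7.45 to 13.9) and 19.5% (15.4 to 24.4) in kidney. In small intestine it gave 93.0% (92.7 to 93.3) and 95.7% (95.4 to 96.0). The most common form of miR-194-5p was the 22-nucleotide read in kidney, with 87.7% and 85.9% of its reads, and this form held 40.3% and 37.9% in small intestine. A base added after cutting would be read as the letter of a copy, and its part in the result was not tested. These shares were looked at after the levels of miR-194-5p had been seen, and no test was run on them. The 3p strand that is particular to mir-194-2 by its sequence, miR-194-2-3p, stood at 41.8 and 48.4 RPTM in kidney and 244 and 191 RPTM in small intestine (log2 fold change -2.50 ± 0.46 SE, adjusted p = 0.00142, edgeR).

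**Figure D3:**
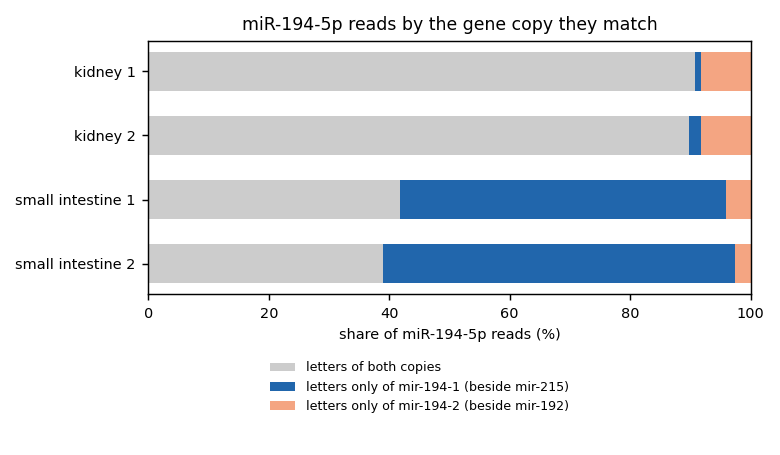
Share of the miR-194-5p reads of each profile (horizontal axis, %) whose letters are found in both hairpin copies (grey), in mir-194-1 alone (blue) or in mir-194-2 alone (orange), 1 bar a profile. The blue part is 0.937% and 1.98% in kidney and 54.1% and 58.4% in small intestine.

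The same shares were computed for the other 6 miRNAs made from several hairpins that had at least 50 reads of 1 copy only in each profile. For let-7f-5p, let-7f-2 gave between 88.6% and 91.6% of such reads in the 4 profiles, and for miR-101-3p mir-101-2 gave between 93.9% and 98.1%. For let-7a-5p, let-7a-2 gave 38.6% and 42.7% in kidney and 56.7% and 52.6% in small intestine. For miR-181b-5p, mir-181b-2 gave between 96.2% and 100%, and the shares of miR-92a-3p and miR-486-5p overlapped between the organs. The leading copy was mir-194-2 in kidney and mir-194-1 in small intestine for miR-194-5p, whose reads of 1 copy only were 9.15% and 10.1% of all its reads in kidney and 58.1% and 61.0% in small intestine. In kidney, 307 and 234 of the 307 and 239 reads of mir-194-2 alone were the form with 1 added A. This form held 8.22% and 7.99% of the miR-194-5p reads, beside a median tailed share of 8.99% and 8.74% over 127 miRNAs. Whether the A was added after cutting was not tested. For let-7a-5p the leading copy was let-7a-3 in kidney and let-7a-2 in small intestine. Its reads of 1 copy only were at most 0.738% of all reads in any profile. Its share of tailed reads was 11.2% and 10.5% in kidney and 10.7% and 10.02% in small intestine.

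miR-204 and miR-211 share a seed and were both higher in kidney. miR-204-5p, which is made from an intron of TRPM3, stood at 29724 and 19045 RPTM in kidney and 144 and 589 RPTM in small intestine (log2 fold change 5.79 ± 0.72 SE, adjusted p = 8.32e-05, edgeR). Of the other tissues, occipital lobe and spinal cord came near the kidney level, at 19591 and 15956 RPTM. miR-211-5p stood at 305 and 106 RPTM in kidney and 0.409 and 1.27 RPTM in small intestine (log2 fold change 7.55 ± 0.84 SE, adjusted p = 4.71e-05, edgeR). miR-204-5p held between 99.0% and 99.8% of the reads of the pair in the 4 profiles.

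In the miR-30 family, whose 5p strands share 1 seed, 5 of 10 tested miRNAs were higher in kidney, against 8.89% over all miRNAs. None was higher in small intestine. miR-30a-5p, its most abundant member, stood at 339219.6 and 237134 RPTM in kidney and 29365 and 34598 RPTM in small intestine (log2 fold change 2.90 ± 0.39 SE, adjusted p = 0.000122, edgeR). The 3p strand from the same hairpin, miR-30a-3p, stood at 17933 and 14902 RPTM against 1511 and 2255 RPTM (log2 fold change 2.87 ± 0.37 SE, adjusted p = 0.000103, edgeR). miR-30c-2-3p showed the largest difference of the family, at 6351 and 4907 RPTM against 335 and 436 RPTM (log2 fold change 3.61 ± 0.38 SE, adjusted p = 3.44e-05, edgeR), and MIR30A and MIR30C-2 lie on the same chromosome of the T2T-MMU8v2.0 assembly.

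miR-30c-5p and miR-30d-5p differed less, with log2 fold changes of 1.65 ± 0.40 and 1.47 ± 0.37 (SE), and their calls were lost without small intestine profile 2 (adjusted p = 0.0859 and 0.0941, edgeR). miR-30e-5p stood at 7239.9 and 4558 RPTM against 4159.8 and 2687 RPTM and was not called (adjusted p = 0.363, edgeR). miR-30a-5p made up 90.4% and 90.1% of the reads of the 5 miR-30 5p miRNAs in kidney and 69.3% and 79.6% in small intestine.

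Less abundant miRNAs also stood apart in kidney. miR-599-5p, whose gene lies within VPS13B, passed the filter only through the kidney profiles and therefore had to differ. It stood at 161 and 169 RPTM in kidney, with no read in small intestine profile 1 and 1 read in small intestine profile 2. This is a ratio of 793 with an exact 95% counting interval of 142 to 31368. The highest profile of the other 6 tissues held 6.26 RPTM. miR-489-3p, within the calcitonin receptor gene CALCR, stood at 86.8 and 64.9 RPTM against 10.6 and 0 RPTM (log2 fold change 3.52 ± 1.03 SE, adjusted p = 0.0263, edgeR). This call was lost without kidney profile 1 or kidney profile 2 (adjusted p = 0.106 and 0.0811, edgeR). miR-138-5p stood at 164 and 117 RPTM against 9.82 and 15.2 RPTM (log2 fold change 3.22 ± 0.49 SE, adjusted p = 0.000351, edgeR).

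Of the other miRNAs with a large difference in kidney, miR-363-3p stood at 379 and 232 RPTM against 10.2 and 21.1 RPTM (log2 fold change 4.01 ± 0.51 SE, adjusted p = 9.33e-05, edgeR). miR-508-3p stood at 57.9 and 210.4 RPTM against 11.05 and 9.28 RPTM (log2 fold change 3.60 ± 0.73 SE, adjusted p = 0.00254, edgeR), with the kidney profiles unequal, and it was the only 1 of the 15 mature sequences of the miR-506 to miR-514 group that passed the filter. miR-424-3p stood at 65.3 and 55.8 RPTM against 3.27 and 7.17 RPTM (log2 fold change 3.29 ± 0.60 SE, adjusted p = 0.00138, edgeR). These 3 calls were kept under every alternative tested.

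Of the miRNAs hosted by the chloride channel gene CLCN5 on the X chromosome, 5 of 6 tested were higher in kidney, against 8.89% over all miRNAs. miR-532-5p stood at 2737 and 2187 RPTM against 684 and 739.8 RPTM (log2 fold change 1.53 ± 0.33 SE, adjusted p = 0.00460, edgeR), and miR-660-5p at 765 and 403 RPTM against 128.5 and 123 RPTM (log2 fold change 1.91 ± 0.38 SE, adjusted p = 0.00234, edgeR). The calls of miR-500a-3p, miR-502-3p and miR-532-3p were each lost without kidney profile 1 (adjusted p = 0.146, 0.116 and 0.130, edgeR) and without small intestine profile 1 (adjusted p = 0.158, 0.168 and 0.103). Without small intestine profile 2 those of miR-500a-3p and miR-532-3p were lost (adjusted p = 0.0769 and 0.104), and without kidney profile 2 that of miR-502-3p (adjusted p = 0.0558).

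Of the gut epithelial group of miR-375, miR-802, miR-31, miR-147b and miR-7, all 5 miRNAs that passed the filter were higher in small intestine. Over all miRNAs, 16.4% were called in that direction. Of the 5, miR-802-5p passed only through the small intestine profiles and therefore had to differ. miR-375-3p, known from islet and gut endocrine cells, stood at 807 and 1076 RPTM in kidney and 108889.7 and 107201 RPTM in small intestine, with the 2 profiles of small intestine nearly equal (log2 fold change -7.05 ± 0.59 SE, adjusted p = 1.13e-05, edgeR). miR-802-5p had no read in either kidney profile and stood at 376 and 103 RPTM in small intestine, at least 401-fold higher against a floor of 3 reads over both kidney profiles. Outside small intestine the highest profile held 1.25 RPTM, in spinal cord.

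miR-147b-3p had 3 and 0 reads in the kidney profiles and stood at 63.8 and 43.0 RPTM in small intestine, a ratio of 88.9 in favour of small intestine with an exact 95% counting interval of 30.1 to 434. miR-31-5p stood at 531 and 284 RPTM against 3781 and 2140.0 RPTM (log2 fold change -3.18 ± 0.60 SE, adjusted p = 0.00160, edgeR), and without kidney profile 2 its adjusted p was 0.0520 (edgeR). miR-7-5p was low in all 4 profiles, at most 12.3 RPTM, and its call (adjusted p = 0.0450, edgeR) was lost without each of the 4 profiles in turn, with adjusted p between 0.0633 and 0.286. It was also lost with scaling to all valid reads (adjusted p = 0.0788).

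In the miR-200 family, which maintains epithelial identity, 3 of 6 tested miRNAs were higher in small intestine, against 16.4% over all miRNAs. None was higher in kidney. miR-141-3p stood at 2307 and 869 RPTM in kidney and 7969.7 and 4117 RPTM in small intestine (log2 fold change -2.29 ± 0.66 SE, adjusted p = 0.0227, edgeR), and miR-200c-3p, from the hairpin beside it, at 36.4 and 14.1 RPTM against 175 and 141 RPTM (log2 fold change -2.98 ± 0.52 SE, adjusted p = 0.000996, edgeR). The call of miR-141-3p was lost without kidney profile 1, kidney profile 2 or small intestine profile 1 (adjusted p = 0.0865, 0.250 and 0.258, edgeR) and with scaling to all valid reads (adjusted p = 0.0697). Of the other gene cluster, the list held mir-200a and mir-429 but not mir-200b. Their 3p strands overlapped between the organs. miR-429-3p stood at 1508 and 954 RPTM against 2479 and 1495 RPTM. The levels of miR-200a-3p were 690.0 and 413 RPTM against 794 and 446 RPTM. Neither was called (adjusted p = 0.141 and 0.587, edgeR), and the sign of both turned with scaling to assigned reads without miR-10b-5p. That the clusters differ from each other was not tested.

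**Figure D4:**
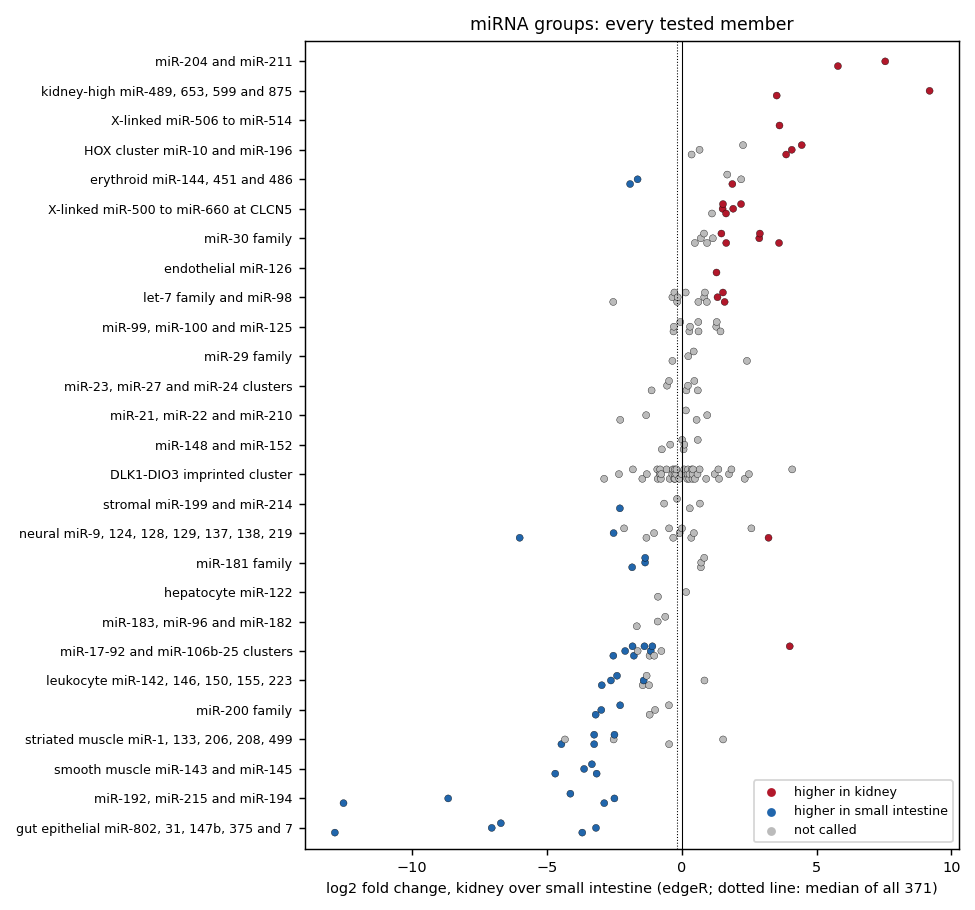
Log2 fold change, kidney over small intestine (horizontal axis), of every tested member of 27 groups of miRNAs, ordered by their median. Red and blue points were called higher in kidney and in small intestine under TMM scaling, grey points were not called, and the dotted line is the median of all 371 miRNAs (-0.17). The miR-204, HOX cluster and miR-30 groups lie to the right, and the miR-192, gut epithelial and smooth muscle groups to the left. The kidney-high group of miR-489, miR-653, miR-599 and miR-875 was chosen on these profiles, so its place follows from that choice. With scaling to assigned reads without miR-10b-5p all 200 points move to the right and the signs of 56 turn, among them those of the called miR-25-3p, miR-92a-3p, miR-181c-5p and miR-181d-5p.

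miRNAs known from cell types other than the epithelia were counted in the same way, and their part in the results was not tested. Their counts are to be read beside the 25.3% called over all miRNAs, which the neural, stromal and hepatocyte lists do not exceed. All 4 miRNAs of the smooth muscle genes mir-143 and mir-145 were higher in small intestine, with a summed level of 322998 to 517578 RPTM in kidney and 2965456 to 3170515 RPTM in small intestine. miR-143-3p, the most abundant miRNA of small intestine, stood at 517032 and 322796 RPTM against 2962642 and 3167003 RPTM (log2 fold change -3.16 ± 0.44 SE, adjusted p = 0.000175, edgeR). miR-145-5p stood at 132.5 and 36.0 RPTM against 749.6 and 861 RPTM (log2 fold change -3.62 ± 0.58 SE, adjusted p = 0.000462, edgeR), and miR-145-3p and miR-143-5p had log2 fold changes of -3.33 and -4.69 (adjusted p = 9.16e-05 and 0.000336, edgeR).

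Of 8 tested miRNAs of striated muscle, 4 were higher in small intestine and none was higher in kidney, with summed levels of 142.6 to 191.6 RPTM in kidney and 1084 to 1386 RPTM in small intestine, and 8 of the 17 mature sequences of this list had no read in the 4 profiles. miR-1-3p, a defining miRNA of striated muscle, stood at 1.56 and 0.413 RPTM against 28.2 and 8.44 RPTM (log2 fold change -4.46 ± 0.82 SE, adjusted p = 0.00139, edgeR). miR-133a-3p stood at 87.6 and 64.5 RPTM against 666 and 528 RPTM (log2 fold change -3.25 ± 0.39 SE, adjusted p = 6.49e-05, edgeR), far under the 144690.2 RPTM of muscle. All its reads also fitted miR-133c-3p, which therefore has the same values and is uncertain. The 2 calls are thus 1 result, and the summed levels hold these reads more than once. The call of miR-133b-3p, 69.0% of whose reads fitted miR-133a-3p, was lost without kidney profile 1 (adjusted p = 0.0565, edgeR). miR-206-3p had no read in either kidney profile and in small intestine profile 2.

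Of 8 tested leukocyte miRNAs, 4 were higher in small intestine and none was higher in kidney. miR-150-5p, abundant in mature lymphocytes, stood at 161 and 128.1 RPTM against 871 and 1019.8 RPTM (log2 fold change -2.97 ± 0.40 SE, adjusted p = 0.000127, edgeR), and miR-142-5p, expressed across blood cells, at 413 and 277 RPTM against 1820.1 and 1160.3 RPTM (log2 fold change -2.40 ± 0.43 SE, adjusted p = 0.00108, edgeR). miR-155-5p was called at an adjusted p of 0.0450 (edgeR), which was lost without each profile in turn, with adjusted p between 0.0588 and 0.348, and with scaling to all valid reads (adjusted p = 0.157). Of the 10 mature sequences of the list 2 had no read in the 4 profiles. The summed level of the list was higher in kidney, 16338 to 17361 RPTM against 9869 to 13245 RPTM. Most of that sum was miR-146b-5p, which stood at 14988 and 16094 RPTM against 8509 and 6229 RPTM and was not called (adjusted p = 0.143, edgeR).

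The endothelial miR-126-3p was higher in kidney, at 1268 and 940.2 RPTM against 325 and 444 RPTM (log2 fold change 1.26 ± 0.34 SE, adjusted p = 0.0145, edgeR). Its call was lost without kidney profile 1 or small intestine profile 1 (adjusted p = 0.0561 and 0.0728, edgeR). Of 5 tested erythroid miRNAs, 1 was higher in kidney and 2 were higher in small intestine, with summed levels of 50781 to 83851 RPTM in kidney and 15301 to 17406 RPTM in small intestine. miR-486-5p, also abundant in muscle, stood at 50449 and 83465 RPTM against 15116 and 17119 RPTM (log2 fold change 1.88 ± 0.46 SE, adjusted p = 0.00908, edgeR), and without small intestine profile 2 its adjusted p was 0.0769 (edgeR). Both sequences named miR-486-3p were higher in small intestine, and 80.6% and 94.7% of their reads were shared, so their separate values are uncertain. Both calls were lost without kidney profile 2 (adjusted p = 0.0837 and 0.0718, edgeR), with scaling to assigned reads without miR-10b-5p (0.535 and 0.267) and when only unshared reads were counted (0.361 and 0.0592).

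Of 13 tested neural miRNAs, 1 (miR-138-5p) was higher in kidney and 2 were higher in small intestine, with summed levels of 964 to 1026 RPTM in kidney and 1389 to 1453 RPTM in small intestine, and 6 of the 22 mature sequences of the list had no read in the 4 profiles. miR-9-5p stood at 235 and 169 RPTM against 939 and 988 RPTM (log2 fold change -2.53 ± 0.38 SE, adjusted p = 0.000284, edgeR), while occipital lobe held 383871 RPTM. miR-9-3p had no read in kidney and 3 and 7 reads in small intestine, at least 3.45-fold higher, and its call (adjusted p = 0.0305, edgeR) was lost without each profile in turn, with adjusted p between 0.0694 and 0.161. Of 5 stromal miRNAs of miR-199 and miR-214, 1 was higher in small intestine, miR-199a-3-5p, whose call was lost without kidney profile 2 (adjusted p = 0.0562, edgeR) and when both read ends had to lie within 1 nucleotide (adjusted p = 0.803). The summed level of that list was 4194 to 6571 RPTM in kidney and 5186 to 5294 RPTM in small intestine. The hepatocyte miRNA miR-122 was near 0 in all 4 profiles, with a sum of at most 2.74 RPTM.

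The miR-17-92 cluster and its paralogs are known for their part in cell proliferation. Of 12 tested miRNAs, 7 were called higher in small intestine and 1 higher in kidney. The shares over all miRNAs were 16.4% and 8.89%. miR-19a-3p stood at 292 and 289.7 RPTM against 1028 and 712 RPTM (log2 fold change -1.82 ± 0.38 SE, adjusted p = 0.00317, edgeR), and miR-17-5p at 52.8 and 28.9 RPTM against 178 and 104 RPTM (log2 fold change -2.10 ± 0.47 SE, adjusted p = 0.00530, edgeR). The exception was miR-363-3p, which was higher in kidney and shares the seed AUUGCAC with miR-92a-3p and miR-25-3p of the same list. miR-92a-3p stood at 5490.4 and 3955 RPTM against 8391 and 8225 RPTM (log2 fold change -1.09 ± 0.37 SE, adjusted p = 0.0450, edgeR) and miR-25-3p at 3173 and 3162 RPTM against 5596 and 6351 RPTM (log2 fold change -1.15 ± 0.34 SE, adjusted p = 0.0245, edgeR). The signs of both turned with scaling to assigned reads without miR-10b-5p, which moved 369 of the 371 log2 fold changes towards kidney. The sign of miR-363-3p was kept under all 18 alternatives, but that scaling could not turn the sign of a miRNA higher in kidney. miR-363-3p made up 3.36% and 2.57% of the reads of its seed in kidney and 0.0684% and 0.128% in small intestine.

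All 7 calls for small intestine in this list were lost with scaling to assigned reads without miR-10b-5p, that of miR-19a-3p with an adjusted p of 0.304 (edgeR). That of miR-19a-3p was made again without each of the 4 profiles in turn, and those of the other 6 were not. Without kidney profile 2, for example, miR-17-5p, miR-18a-5p, miR-20a-5p, miR-25-3p, miR-92a-3p and miR-93-5p had adjusted p of 0.0903, 0.172, 0.0785, 0.0748, 0.213 and 0.124 (edgeR).

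In the let-7 family, 3 of 13 tested miRNAs were higher in kidney and none was higher in small intestine. Over all 371 miRNAs, 8.89% were called higher in kidney, 16.4% higher in small intestine and 25.3% in either direction. The let-7 share does not exceed the last of these. let-7e-5p stood at 27239.9 and 34247 RPTM against 10003 and 8381 RPTM (log2 fold change 1.53 ± 0.37 SE, adjusted p = 0.00908, edgeR), and let-7c-5p and miR-98-5p had log2 fold changes of 1.59 and 1.33. All 3 calls were lost without small intestine profile 2 (adjusted p = 0.0859, 0.0640 and 0.0869, edgeR). let-7f-5p, the most abundant of the family, held between 65.4% and 69.2% of the reads of the let-7 seed in the 4 profiles. In the miR-181 family 3 of 6 were higher in small intestine, all from mir-181c and mir-181d, and all 3 calls were lost without kidney profile 2 (adjusted p = 0.114 for miR-181c-3p, 0.257 for miR-181c-5p and 0.157 for miR-181d-5p, edgeR). The signs of miR-181c-5p and miR-181d-5p turned with scaling to assigned reads without miR-10b-5p.

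A further set of called miRNAs belongs to none of the groups, and those named here were chosen after their values had been seen. In kidney, miR-874-3p, within KLHL3, stood at 94.2 and 108 RPTM against 10.2 and 8.86 RPTM (log2 fold change 3.18 ± 0.50 SE, adjusted p = 0.000415, edgeR), and miR-190a-5p, within TLN2, at 256 and 132 RPTM against 49.5 and 21.1 RPTM (log2 fold change 2.13 ± 0.53 SE, adjusted p = 0.00970, edgeR). The call of miR-874-3p was lost when only reads identical to the mature miRNA were counted (adjusted p = 0.0666, edgeR), and that of miR-190a-5p was lost without kidney profile 1 or small intestine profile 2 (adjusted p = 0.0786 and 0.0898, edgeR). miR-135a-5p had 21 reads over both kidney profiles and none in small intestine, at least 6.77-fold higher, and its call was lost without each profile in turn (adjusted p between 0.0717 and 0.115, edgeR).

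In small intestine, miR-203-3p, known from keratinised and other stratified epithelia, stood at 41.8 and 18.2 RPTM in kidney against 292 and 522 RPTM (log2 fold change -4.07 ± 0.69 SE, adjusted p = 0.000791, edgeR). miR-490-3p, within the muscarinic receptor gene CHRM2, had no read in kidney and stood at 19.6 and 23.6 RPTM in small intestine, at least 35.8-fold higher (adjusted p = 0.000269, edgeR). Both calls were kept under every alternative tested. miR-28-5p, within LPP, stood at 374 and 332 RPTM against 766 and 598 RPTM (log2 fold change -1.21 ± 0.37 SE, adjusted p = 0.0295, edgeR), and its sign turned with scaling to assigned reads without miR-10b-5p. Its call was lost without kidney profile 1, kidney profile 2 or small intestine profile 1 (adjusted p = 0.147, 0.131 and 0.168, edgeR) and with scaling to all valid reads (adjusted p = 0.0749).

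Other families held no called member. None of the 45 tested miRNAs of the imprinted DLK1-DIO3 cluster was called, and their median log2 fold change was -0.00415. None of the 10 tested of miR-99, miR-100 and miR-125 was called, and the small intestine profiles differed from each other there, for example miR-99b-5p at 4644 and 15857 RPTM. The same held for the miR-29 family (4 tested), the miR-23, miR-27 and miR-24 clusters (7), miR-148 and miR-152 (6), the cluster of miR-183, miR-96 and miR-182 (3) and miR-21, miR-22 and miR-210 (5). A p that misses the threshold does not show that these levels were equal.

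Grouped by the seed of the listed sequence, 47 seeds were carried by 2 or more of the tested miRNAs, and 21 of these had at least 1 called member. Over all 371 miRNAs, 25.3% were called. Read starts were looked at for miRNAs with at least 1000 reads in each of the 4 profiles. In kidney profile 1 the most common reads of miR-141-3p, miR-93-5p, miR-30e-3p, miR-101-3p and miR-411-5p began 1 base before the listed 5′ end. Those of miR-29a-3p and miR-140-3p began 1 base after it. Their seed as read differs from the one used, so the counts hold for the listed sequences only. Some members share reads and so are not separate results, such as both sequences named miR-486-3p, or miR-133b-3p with miR-133c-3p. In 13 of the 21, 2 or more members were called, and in 2 of the 13 they were called in opposite directions. One of the 2 is the seed AUUGCAC described above. The other is AGCAGCA, with miR-424-5p higher in kidney, at 95.4 and 55.8 RPTM against 10.6 and 4.64 RPTM (log2 fold change 2.99 ± 0.57 SE, adjusted p = 0.00184, edgeR), and miR-15a-5p and miR-15b-5p higher in small intestine, with log2 fold changes of -1.20 and -1.97 (adjusted p = 0.0293 and 0.00724, edgeR). The call of miR-424-5p was kept under every alternative tested. Those of miR-15a-5p and miR-15b-5p were lost without kidney profile 1 (adjusted p = 0.153 and 0.0516, edgeR), kidney profile 2 (0.129 and 0.0941) or small intestine profile 1 (0.179 and 0.0651). The sign of miR-15a-5p turned with scaling to assigned reads without miR-10b-5p. That scaling moved 369 of the 371 log2 fold changes towards kidney and could not turn the sign of miR-424-5p.

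The use of the 2 arms of a hairpin was compared for 162 pre-miRNAs with at least 20 reads on both arms together in each of the 4 profiles. A different log2 ratio of 5p to 3p reads was called for 3 (1.85%), mir-138 and the 2 hairpins named mir-486 (limma on the log2 ratio, pseudocount 0.5). mir-138 had no read on its 3p arm in any of the 4 profiles, so its ratio follows the 5p reads. The 2 mir-486 hairpins share their 5p reads and are therefore 1 result, with 5p reads higher in kidney, while the calls of the 3p reads were lost under the alternatives given above. None of the 3 was called without any 1 of the 4 profiles. For mir-30c-2 the 3p strand was 67.8% and 73.6% of the reads of both arms in kidney and 32.1% and 45.3% in small intestine, which was not called (adjusted p = 0.102, limma). Its 5p reads are shared with mir-30c-1.

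Reads with a tail of 1 or 2 A or of 1 or 2 U that the hairpin does not encode were counted for 127 miRNAs with at least 200 reads in each profile. Their median share was 8.99% and 8.74% in kidney and 8.86% and 8.50% in small intestine. No miRNA was called (0% of 127, limma), with 11 at an unadjusted p under 0.05 and a lowest adjusted p of 0.193. The most common read was the same in all 4 profiles for 60 of 69 miRNAs with at least 1000 reads in each. For miR-10b-5p it ended 1 base before the annotated 3′ end and held between 69.4% and 74.5% of the reads, and for miR-192-5p it was the annotated sequence with between 89.6% and 91.0%.

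**Figure D5:**
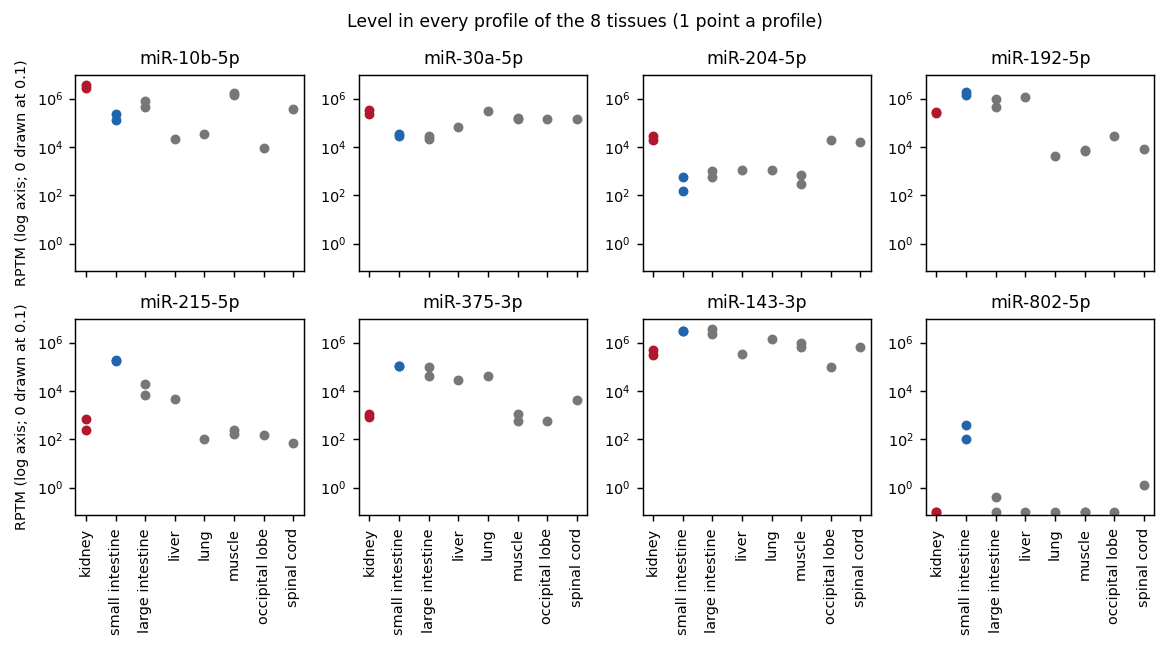
Level (vertical axis, RPTM on a log axis, 0 drawn at 0.1) of 8 miRNAs in every profile of the 8 tissues, 1 point a profile, with kidney in red and small intestine in blue. miR-10b-5p is highest in the kidney profiles, miR-215-5p and miR-802-5p are highest in the small intestine profiles, and miR-204-5p is near the kidney level in occipital lobe and spinal cord.

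Across the 8 tissues, both kidney profiles held more miR-10b-5p than any other profile, and both small intestine profiles more miR-192-5p, miR-215-5p, miR-375-3p and miR-802-5p. miR-30a-5p and miR-204-5p were highest in kidney profile 1, while lung held 317574 RPTM of miR-30a-5p and occipital lobe 19591 RPTM of miR-204-5p, both above kidney profile 2. These miRNAs were chosen with their levels known, so that they are no independent check of the labels. miR-143-3p overlapped between large and small intestine, with large intestine at 2345167 and 3567909 RPTM. miR-375-3p in large intestine profile 1, at 95210.3 RPTM, came near the small intestine level. Lung with 42424 RPTM and liver with 28507 RPTM of miR-375-3p also stood above both kidney profiles.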

How the data were processed

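Total RNA of 12 samples from 8 tissues was made into small RNA libraries and sequenced. The deposited profiles hold, for each unique sequence, its count of reads after the authors had kept reads with scores of at least 30 in the first 25 nucleotides and had removed the 3′ adaptor. Counts were used as deposited, and no unit other than the count was used. Reads of 18 to 44 nucleotides were present. Mature sequences and hairpins were read from the study's list. Of it, 832 pre-miRNAs with 1219 mature sequences under 1390 names were used here, and 7 names could not be located in a hairpin. miRNAs outside these 832 pre-miRNAs were not counted. Reads were matched without mismatch to the hairpins, and those that began and ended no more than 2 nucleotides from the ends of a mature miRNA were counted for it. A read that fitted several mature miRNAs was counted for each, so that near-identical copies are uncertain. Ligation bias was not corrected, so levels of different miRNAs are not compared as molecule numbers.

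After the study's methods, the tests took in miRNAs whose RPTM over the 12 profiles averaged 5 or more with an SD of 1 or more. The edgeR 4.0.16 quasi-likelihood test was fitted to the counts of all 12 profiles in 8 tissue groups with TMM scaling (R 4.3.3), which leaves 4 residual degrees of freedom, all from the 4 tissues with 2 profiles. The contrast was kidney minus small intestine. The test gives no SE. Each SE of a log2 fold change was taken as its absolute value divided by the square root of the F statistic of the test, an approximation. An exact permutation test of 2 against 2 profiles cannot go below p = 0.333 and was not used. TMM factors of the 4 profiles lay between 0.579 and 0.784. Arm ratios and tails were tested with limma 3.58.1 on log2 ratios with a pseudocount of 0.5. The fits were tested on simulated data. DESeq2 1.42.0 was an alternative, as were other scalings, filters, groupings and read assignments and leaving out each profile.

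The 12 miRNAs with the largest called difference in each direction and a mean of at least 50 RPTM in the higher organ, the 5 most abundant of each organ and the called members of 27 lists were named. The members and lists were chosen with earlier results of these data known. Of the 310 pre-miRNAs of the tested miRNAs, 279 were matched by symbol to the T2T-MMU8v2.0 annotation, which was used for names and neighbours within 10 kb only. The deposited profiles were not aligned to it.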

Additional observations from a re-analysis of the deposited data

How the results depend on the processing

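The count of miRNAs higher in kidney, 33, became 51 with scaling to all valid reads, 166 with scaling to assigned reads without miR-10b-5p, 60 with no filter and 57 in a fit of the 8 profiles with a second profile of their tissue. It lay between 21 and 32 without each profile in turn. The count higher in small intestine, 61, became 26 with scaling to assigned reads without miR-10b-5p and 27 when only reads identical to the mature miRNA were counted, and lay between 33 and 50 without each profile in turn. With DESeq2, 47 were higher in kidney and 58 in small intestine. The median log2 fold change of all miRNAs moved by 0.13 with DESeq2 size factors, 0.23 with all valid reads and 1.32 without miR-10b-5p.

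The deviations of same-numbered kidney and small intestine profiles correlated at 0.0109 over 371 miRNAs, and those of other tissue pairs at -0.139 to 0.153. These values describe the profiles only and cannot tell whether a number stands for an animal. With a replicate block in the fit of 8 profiles, 61 miRNAs were higher in kidney and 42 in small intestine, no arm ratio was called (0), and with a block in the fit of the 4 profiles alone 41 and 45 miRNAs were called.

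The 3 calls of arm ratio became 0 in the fit of the 4 profiles alone and between 0 and 0 without each profile in turn, while 4 were made with a minimum of 100 reads or a pseudocount of 1. The count of tails called lay between 0 and 1, the 1 being made without small intestine profile 1.

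Over 84 named miRNAs and 18 alternatives, 1255 of 1481 values kept both direction and side of the threshold, 20 gained a call, 10 turned direction and the rest kept the direction and lost the call. With scaling to assigned reads without miR-10b-5p, the log2 fold change turned to 0.18 for miR-25-3p, 0.27 for miR-92a-3p, 0.035 for miR-181c-5p, 0.00137 for miR-181d-5p, 0.39 for miR-429-3p, 0.91 for miR-200a-3p, 0.15 for miR-15a-5p and 0.15 for miR-28-5p. That of miR-200a-3p, not called, was also 0.36 with identical reads only and lay between -0.86 and 0.16 without each profile in turn, the latter without small intestine profile 1. The cause was not tested. All calls rest on 2 profiles an organ, and a level under the floor of 3 reads over both profiles of an organ, 0.603 RPTM in kidney and 0.623 RPTM in small intestine, could not be told from 0.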
